A study of Mus musculus with 12 samples.

Results

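Levels of 8 adipokine genes were described across 12 single-nucleus RNA sequencing libraries of mouse adipose tissue. Adipokines are proteins that adipocytes release into blood or tissue, and the 8 genes were Lep, Adipoq, Retn, Rbp4, Cfd, Nampt, Apln and Sncg. They were chosen by symbol, and each matched exactly 1 of the 32285 features in the count matrices. The mice were male C57BL/6J animals on a normal chow diet, with no transgene or deletion named in the labels. The adipose depots are labelled mPRAT, lPRAT, iBAT and iWAT, abbreviations in common use for the medial and lateral parts of perirenal fat, for brown fat between the shoulder blades and for subcutaneous fat of the groin. mPRAT and iBAT were sampled at 1, 2 and 6 months at a room temperature of 22 °C and at 6 months after 3 days of cold exposure at 4 °C. lPRAT was sampled at 2 and 6 months at room temperature, and iWAT at 6 months at room temperature and in cold. The ages are those of the library titles. The age field gives 4, 8 and 16 weeks for the same libraries, so the libraries titled 6 months carry an age of 16 weeks there. Each of the 12 groups had 1 library, and the number of animals behind a library is not stated. No difference below could therefore be set against a spread between animals, and every interval covers counting error only.

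White adipocytes store lipid in a single large droplet and secrete hormones that report fat stores to the brain, liver and muscle. Leptin, encoded by Lep, restrains food intake and acts through the receptor Lepr. Adiponectin, from Adipoq, promotes insulin sensitivity through Adipor1 and Adipor2, whereas resistin, from Retn, is a mouse adipocyte product named for its effect against insulin. Brown adipocytes burn lipid for heat through the uncoupling protein Ucp1, and cold drives them through sympathetic nerves. Rbp4 carries retinol in blood, and Cfd is the complement protease adipsin. Nampt makes the rate-limiting enzyme of the NAD salvage pathway and is also found outside cells, and Apln encodes the peptide ligand of the receptor Aplnr. Sncg encodes gamma-synuclein, a small cytosolic protein of neurons and white adipocytes that has been counted among adipocyte-enriched products without being a classical hormone.

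On GRCm38 the genes lie apart from each other. Lep (ENSMUSG00000059201) spans chromosome 6 from 29060220 to 29073877 on the plus strand, Adipoq chromosome 16 from 23146536 to 23158028 on the plus strand, and Retn chromosome 8 from 3655770 to 3660110 on the plus strand. Rbp4 spans chromosome 19 from 38116629 to 38125281 on the minus strand, and Cfd chromosome 10 from 79890853 to 79892655 on the plus strand. Nampt spans chromosome 12 from 32819545 to 32853349 on the plus strand and overlaps the long noncoding RNA gene Gdap10 on the same strand, so reads from the shared stretch could be counted for either gene or dropped. Apln spans chromosome X from 48025146 to 48034853 and Sncg chromosome 14 from 34370274 to 34374789, both on the minus strand.

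The stretch of 250 bases before the RefSeq start is shown for 4 genes. Lep and Adipoq were both lower in each cold library than in its room temperature counterpart, whereas Retn and Nampt were not lower together with them in iWAT or mPRAT. The windows are chr6:29059971-29060220 for Lep, chr16:23146286-23146535 for Adipoq, chr8:3655520-3655769 for Retn and chr12:32820085-32820334 for Nampt, all on the plus strand of GRCm38.p6 and printed 5′ to 3′. Capitals mark matches to 4 motifs searched on both strands, which are the C/EBP-type motif TTGCNNAA, the CCAAT box, the GC box GGGCGG and the TATA box TATAAA.
Lep: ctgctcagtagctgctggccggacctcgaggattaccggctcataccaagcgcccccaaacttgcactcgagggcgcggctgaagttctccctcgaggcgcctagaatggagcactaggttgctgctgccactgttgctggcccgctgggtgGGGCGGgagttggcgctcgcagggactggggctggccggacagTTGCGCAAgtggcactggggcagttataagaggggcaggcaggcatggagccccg
Adipoq: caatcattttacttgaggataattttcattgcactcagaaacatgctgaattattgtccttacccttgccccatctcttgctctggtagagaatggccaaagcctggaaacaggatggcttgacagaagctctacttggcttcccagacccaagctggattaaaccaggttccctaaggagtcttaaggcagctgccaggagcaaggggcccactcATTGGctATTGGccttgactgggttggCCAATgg
Retn: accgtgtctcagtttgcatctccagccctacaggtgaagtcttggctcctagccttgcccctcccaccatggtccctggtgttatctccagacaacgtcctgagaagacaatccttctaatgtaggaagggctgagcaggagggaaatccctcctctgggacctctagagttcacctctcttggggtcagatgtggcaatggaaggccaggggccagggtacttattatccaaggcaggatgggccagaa
Nampt: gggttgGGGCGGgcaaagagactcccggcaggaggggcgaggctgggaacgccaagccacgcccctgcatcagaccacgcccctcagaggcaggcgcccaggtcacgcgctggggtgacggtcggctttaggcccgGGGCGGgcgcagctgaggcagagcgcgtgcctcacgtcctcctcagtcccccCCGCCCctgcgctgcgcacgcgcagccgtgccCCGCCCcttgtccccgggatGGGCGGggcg
The Lep window held the TTGCNNAA motif as TTGCGCAA, 55 bases before the start and readable on both strands, and a GC box 98 bases before it. Of 32851 windows of the same length in the reference, 9.56% held TTGCNNAA and 32.7% held GGGCGG. Adipoq held 3 CCAAT boxes, at 34, 27 and 7 bases before the start, and 33.8% of all windows held at least 1. Nampt held 5 GC boxes in a window of 75.6% G and C, against 65.6% for Lep, 54.8% for Retn and 48.8% for Adipoq. The Nampt window lies within the GENCODE span of that gene, which opens further upstream. The Retn and Cfd windows held none of the 4 motifs. Rbp4, with 2 RefSeq starts, was the only member with a TATAAA match, which 12.4% of all windows held. These matches describe letters in a window and are no evidence of binding.

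Adipocyte-like nuclei were taken as 6 clusters named from 10 adipocyte markers, with the 8 adipokines left out of both the markers and the genes used for clustering. They made up 65472 of 96629 kept nuclei. All 10 adipocyte markers were detected in these nuclei in every library, at a summed level of 14098 to 35176 CPM. CPM are counts scaled to a total of 1e+06 per library and class. Since the nuclei were named from the same markers, this level is no separate check of the labels. Adipocyte-like nuclei numbered 1945 to 15401 per library, with total counts of 2563099 in lPRAT at 2 months to 70193420 in iBAT in cold. Their median depth per nucleus ran from 897 to 6622 unique molecular identifiers (UMIs) in the same libraries. The mPRAT library in cold stood apart, with 66.0% of its barcodes above the mitochondrial limit. Of 95440 kept barcode strings, 1179 occurred in more than 1 library.

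Lep showed the widest span of the hormone genes, and the order of the libraries separated white from brown depots. Its level in adipocyte-like nuclei was highest in iWAT at room temperature, at 248 CPM (95% counting interval 243 to 253), and iWAT in cold stood at 109 CPM (104 to 114). lPRAT held 133 CPM at 2 months and 217 CPM at 6 months. Every library of these white depots lay above every iBAT library. mPRAT stood at 42.8 CPM at 1 month, 40.8 CPM at 2 months, 112 CPM at 6 months and 21.4 CPM in cold. iBAT stood at 62.8, 35.4 and 27.0 CPM at 1, 2 and 6 months and at 1.62 CPM (1.34 to 1.95) in cold, 153-fold below the highest library. In this order the intervals of mPRAT at 6 months and iWAT in cold overlapped, as did those of mPRAT at 1 and 2 months and of mPRAT and iBAT at 2 months.

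Adipoq varied far less than Lep, with a ratio of 7.09 between its highest and lowest libraries. The highest level was 282 CPM (274 to 291) in lPRAT at 6 months, and lPRAT at 2 months held 189 CPM. iWAT held 235 CPM at room temperature and 159 CPM in cold. mPRAT held 154, 174 and 229 CPM at 1, 2 and 6 months and 87.9 CPM in cold, so the 6-month library overlapped iWAT at room temperature. iBAT held 108, 126 and 122 CPM at 1, 2 and 6 months, and 39.8 CPM (38.3 to 41.3) in cold, the lowest of the 12. The 2 lowest libraries of all were both cold ones.

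Retn divided iBAT from the other depots. mPRAT held 60.3, 91.6 and 130 CPM at 1, 2 and 6 months and 143 CPM (136 to 151) in cold, and iWAT held 115 CPM at room temperature and 158 CPM in cold. lPRAT held 77.6 CPM at 2 months and 183 CPM (176 to 189) at 6 months, the highest level seen. iBAT held 15.7, 38.5 and 5.11 CPM at 1, 2 and 6 months and 5.17 CPM in cold. The highest and lowest libraries differed 35.7-fold, and the 2 iBAT libraries at the bottom of the order had overlapping intervals.

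**Figure D1:**
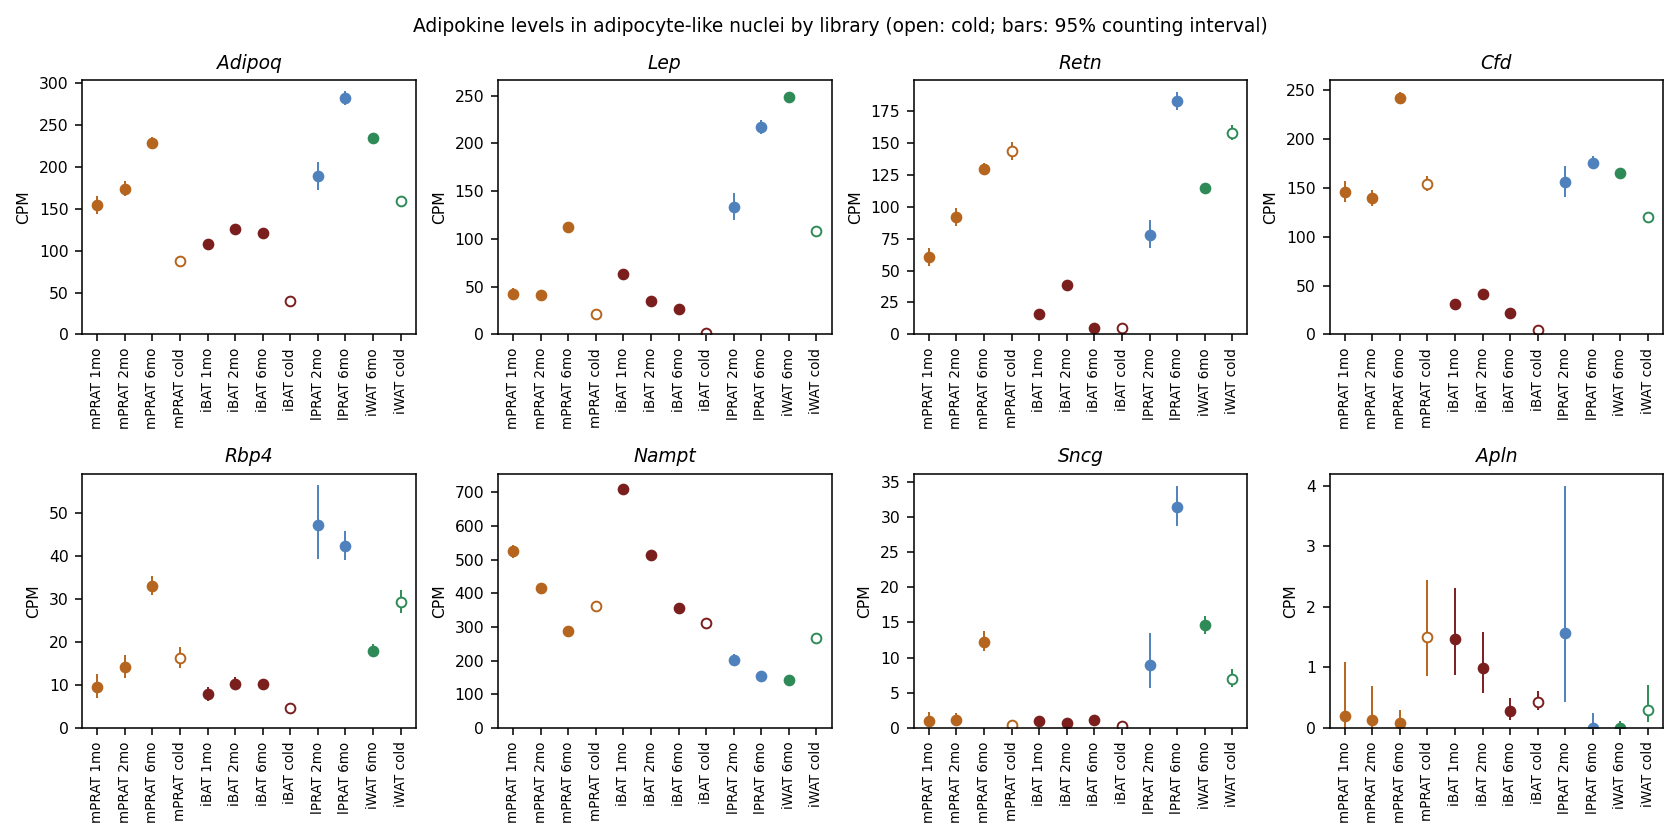
Level of each adipokine gene (CPM of counts summed over adipocyte-like nuclei) in the 12 libraries, 1 panel per gene, each on its own axis. Bars are 95% counting intervals and open symbols are cold libraries. Lep and Adipoq are lowest in iBAT in cold, at 1.62 and 39.8 CPM, Nampt is highest in iBAT at 1 month at 711 CPM, and Apln is near 0 throughout.

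Cfd followed a similar division by depot. Its level was 146, 140 and 241 CPM in mPRAT at 1, 2 and 6 months and 154 CPM in cold. It was 156 and 176 CPM in lPRAT and 165 and 120 CPM in iWAT, room temperature first. iBAT held 31.0, 41.0 and 21.7 CPM at 1, 2 and 6 months and 4.4 CPM (3.92 to 4.92) in cold, 54.8-fold below mPRAT at 6 months. Every iBAT library lay below every library of the other depots.

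Rbp4, the retinol carrier, had its highest values in lPRAT. lPRAT held 47.2 CPM (39.2 to 56.4) at 2 months and 42.2 CPM (39.0 to 45.6) at 6 months, and these intervals overlapped. mPRAT held 9.52, 14.2 and 33.0 CPM at 1, 2 and 6 months and 16.2 CPM in cold. iBAT held 7.79, 10.2 and 10.2 CPM, then 4.62 CPM in cold, whereas iWAT held 17.9 CPM at room temperature and 29.3 CPM in cold. The span from lowest to highest was 10.2-fold.

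Nampt, unlike the hormone genes, had its highest levels in young iBAT. iBAT held 711, 514 and 357 CPM at 1, 2 and 6 months and 312 CPM in cold, and mPRAT held 525, 415 and 287 CPM and then 362 CPM in cold. lPRAT held 202 and 155 CPM at 2 and 6 months. iWAT held 143 CPM (139 to 147) at room temperature, the lowest library, and 268 CPM in cold. The highest library exceeded the lowest 4.97-fold, the smallest span among the members with counts in every library. The intervals overlapped between mPRAT at 1 month and iBAT at 2 months, and between mPRAT in cold and iBAT at 6 months.

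Sncg was seen mainly in the white depots and in mPRAT at 6 months. It reached 31.5 CPM (28.7 to 34.4) in lPRAT and 14.6 CPM in iWAT at 6 months, with 8.97 CPM in lPRAT at 2 months and 6.97 CPM in iWAT in cold. mPRAT held 0.972 and 1.12 CPM at 1 and 2 months, 12.3 CPM (10.9 to 13.8) at 6 months and 0.469 CPM in cold, and iBAT stayed between 0.328 and 1.05 CPM. Apln had few counts in adipocyte-like nuclei. It had 18, 17 and 11 counts in iBAT at 1, 2 and 6 months and 30 in cold iBAT, 16 in cold mPRAT and at most 5 in each other library. No Apln count was seen in lPRAT at 6 months or in iWAT at room temperature, where 3 counts would be 0.198 and 0.0855 CPM and the exact Poisson upper limits are 0.244 and 0.105 CPM.

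Cold exposure was compared with room temperature within each of 3 depots at 6 months. A gene counted as past 2-fold when its log2 ratio, with 1 CPM added to both levels, was at least 1 in size and it had at least 20 counts over both libraries. Lep was lower in cold in each depot. Adipoq, Cfd and Sncg also had lower levels in each, by amounts that reached 2-fold in some depots, whereas Retn and Nampt were not past 2-fold in any. Under alternatives, Nampt in iWAT passed it with TMM scaling or after subtraction of the macrophage-like level. That level was 70.0% of the adipocyte-like one for Nampt in iWAT at room temperature, so it may not be background alone. In mPRAT 3 of the 7 members with enough counts were past 2-fold, all lower, against 15.2% of all genes in either direction and 7.21% lower. iBAT had 4 of 8, all lower, against 14.4% and 8.78%, and iWAT had 1 of 7, lower, against 8.44% and 5.96%. Here and below the share over all genes was not matched on level. With 1 CPM added, a gene below 1 CPM in both libraries cannot pass 2-fold. Such genes lower that share and are also in the medians over all genes. The members' median log2 ratio was -0.98 in mPRAT, -0.81 in iBAT and -0.45 in iWAT, beside medians of -0.03, -0.09 and -0.18 over all genes with enough counts. Markers of ASPC-like cells (adipose stem and progenitor cells), 10 of 10 detected, were also lower within the adipocyte-like nuclei in cold. Their summed level was 263 and 56.9 CPM in mPRAT, 106 and 22.5 CPM in iBAT and 329 and 253 CPM in iWAT, room temperature first. In mPRAT, epithelial and mesothelial markers went the other way, from 9.46 to 236 CPM and from 5.53 to 55.9 CPM. The part of these levels in the result was not tested.

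Lep was 5.25-fold lower in cold in mPRAT (95% counting interval 4.58 to 6.04), 16.6-fold lower in iBAT (13.7 to 20.3) and 2.28-fold lower in iWAT (2.17 to 2.40). Adipoq was 2.60-fold lower in mPRAT (2.43 to 2.79), 3.05-fold lower in iBAT (2.91 to 3.20) and 1.48-fold lower in iWAT, where it did not reach 2-fold. Cfd was 4.92-fold lower in iBAT (4.31 to 5.62), 1.56-fold lower in mPRAT and 1.37-fold lower in iWAT. Sncg rested on few counts. In mPRAT it had 300 counts at room temperature and 5 in cold, 26.2-fold lower in CPM (11.1 to 81.2). Without the mitochondrial limit the log2 ratios in mPRAT were -2.41 for Lep, -1.43 for Adipoq and -1.08 for Rbp4, which then also passed 2-fold. In iBAT and iWAT Sncg was 3.21-fold and 2.09-fold lower, with log2 ratios of -0.63 and -0.97 after the added 1 CPM.

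Rbp4 differed in direction between depots. It was 2.22-fold lower in cold in iBAT (1.91 to 2.57, log2 ratio -1.001) and 2.03-fold lower in mPRAT (log2 ratio -0.98), but 1.64-fold higher in iWAT (1.45 to 1.84). The call in iBAT sat at the limit itself and was lost under 6 of 10 alternatives, with a log2 ratio of -0.18 when the macrophage-like level was subtracted, and the value in mPRAT just inside it. Among iBAT nuclei of cluster 0, a set led by Cyp2e1, Rbp4 was 15.9 CPM at room temperature and 49 CPM in cold, the opposite direction. Retn was 1.11-fold higher in mPRAT (1.04 to 1.18) and 1.38-fold higher in iWAT (1.31 to 1.44), and its ratio in iBAT was 1.01 (0.851 to 1.21). Nampt was 1.26-fold higher in mPRAT, 1.87-fold higher in iWAT (1.79 to 1.95) and 1.14-fold lower in iBAT. Apln had 16 counts in cold mPRAT against 2 at room temperature, a ratio of 18.3 with an interval of 4.31 to 164, below the count minimum.

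**Figure D2:**
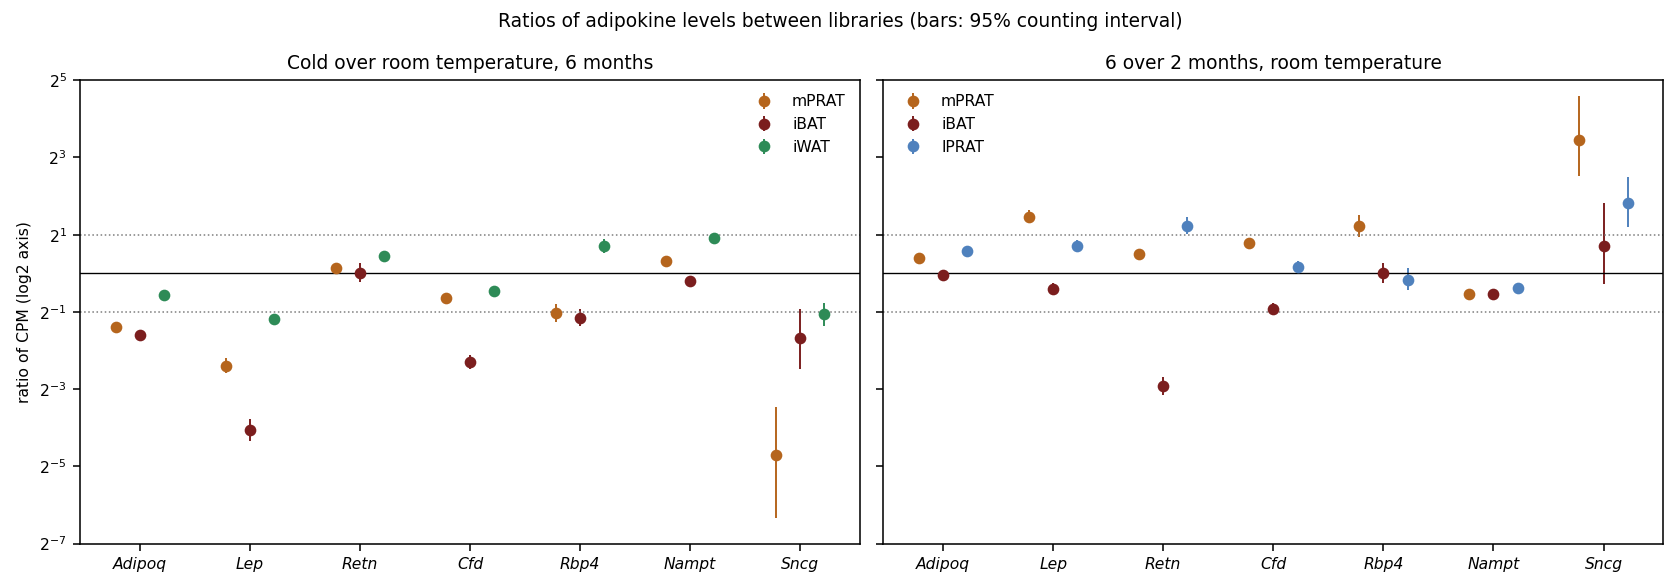
Ratio of levels in cold over room temperature, and at 6 over 2 months, for 7 adipokine genes on a log2 axis, with 95% counting intervals and dotted lines at 2-fold. Lep lies below the lower line in all 3 cold comparisons, at 2.28 to 16.6-fold lower, while Retn and Nampt lie between the lines in cold. At 6 over 2 months Retn points down only in iBAT, where it is 7.54-fold lower.

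The age comparisons differed by depot. In mPRAT, 0 of 6 members were past 2-fold between 1 and 2 months, where 6.38% of genes were. Between 2 and 6 months 3 of 7 were past it, all higher, against 9.35% of genes, and between 1 and 6 months 4 of 7, all higher, against 13.8%. Lep was 2.75-fold higher at 6 than at 2 months (2.46 to 3.10), Rbp4 2.33-fold higher (1.91 to 2.86) and Sncg 11-fold higher (5.70 to 24.2). The Rbp4 call was lost with nuclei of at least 1000 genes and with 10 CPM added (log2 ratio 0.83). Retn passed 2-fold only over the longer interval, at 2.15-fold higher at 6 than at 1 month (1.91 to 2.42). It no longer passed under 3 of 10 alternatives, namely with nuclei of at least 1000 genes (log2 ratio 0.91), with the macrophage-like level subtracted and with 10 CPM added. Adipoq and Cfd were 1.31-fold and 1.73-fold higher at 6 than at 2 months, and Nampt was 1.44-fold lower. The mPRAT library at 6 months and room temperature is shared by these comparisons and by the cold one.

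In iBAT, Lep and Retn were lower at 6 months than at either earlier age. Retn was 2.46-fold higher at 2 than at 1 month (2.09 to 2.90), the only 1 of 8 members past 2-fold, where 3.63% of genes were. It was then 7.54-fold lower at 6 than at 2 months (6.44 to 8.87), again the only 1 of 8, against 8.12% of genes. Between 1 and 6 months 2 of 8 were past 2-fold, against 10.5% of genes. These were Lep, 2.33-fold lower, and Retn, 3.07-fold lower, while Nampt was 1.99-fold lower with a log2 ratio of -0.99. Lep no longer passed with the mean of nuclei (log2 ratio -0.89) or with 10 CPM added. With 10 CPM added Retn did not pass between 1 and 6 months (-0.76) or between 1 and 2 months (0.92). Cfd was 1.90-fold lower at 6 than at 2 months, and Lep 1.31-fold lower.

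In lPRAT 2 of 7 members were past 2-fold between 2 and 6 months, both higher, where 21.7% of genes were, so the members' share was close to the background. Retn was 2.35-fold higher (2.04 to 2.73) and Sncg 3.51-fold higher (2.31 to 5.59). Lep and Adipoq were 1.63-fold and 1.49-fold higher, and Nampt was 1.30-fold lower. Nampt was lower at 6 than at 2 months in each of mPRAT, iBAT and lPRAT, by less than 2-fold.

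mPRAT was set beside iBAT at each age and in cold. At 1 month 2 of 6 members were past 2-fold, at 2 months 2 of 7, at 6 months 5 of 7 and in cold 5 of 8, all higher in mPRAT. The shares of all genes were 11.8%, 10.4%, 11.8% and 12.1% in the same order. Retn was 3.85-fold, 2.38-fold, 25.4-fold and 27.7-fold higher in mPRAT in the 4 comparisons. Cfd was 4.70-fold, 3.40-fold, 11.1-fold and 35.0-fold higher. Lep was 4.17-fold higher at 6 months and 13.2-fold higher in cold. Rbp4 was 3.22-fold and 3.52-fold higher in these 2 comparisons, Sncg 11.7-fold higher at 6 months and Adipoq 2.21-fold higher in cold. Adipoq no longer passed 2-fold with TMM scaling (log2 ratio 0.76), with the mean of nuclei or with 10 CPM added. Retn at 2 months fell just short of 2-fold with the macrophage-like level subtracted (log2 ratio 0.996), and Rbp4 in cold with 10 CPM added (0.84). The libraries recur in several of these comparisons. Among nuclei of cluster 0 alone, an alternative chosen after the data were seen, the direction turned for Retn at 1 and 2 months (log2 ratios of -0.17 and -0.66), for Lep at 6 months and in cold (-1.10 and -0.27), for Sncg at 6 months and for Rbp4 in cold.

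mPRAT was also set beside the white depots. Lep was 3.26-fold lower than in lPRAT at 2 months and 2.21-fold lower than in iWAT at 6 months, and Nampt was 2.06-fold and 2.01-fold higher in the same comparisons. At 2 months 4 of 7 members were past 2-fold between mPRAT and lPRAT, against 25.4% of genes, with Rbp4 3.33-fold and Sncg 8.02-fold lower in mPRAT, the latter from 9 counts in mPRAT and 23 in lPRAT. At 6 months only Sncg was, at 2.56-fold lower, 1 of 7 members against 14.0% of genes. With 10 CPM added Sncg passed at neither age (log2 ratios of -0.77 and -0.90). Between mPRAT and iWAT 2 of 7 members were past 2-fold, against 12% of genes. Nampt sat at the limit there and no longer passed it under 5 of 10 alternatives, and against lPRAT at 2 months it did not pass with nuclei of at least 1000 genes (log2 ratio 0.85). Lep against iWAT had a log2 ratio of -0.96 with the macrophage-like level subtracted, and among nuclei of cluster 0 it was higher in mPRAT, at 112 CPM against 63.3 CPM (log2 ratio 0.81). Among nuclei of cluster 1 Lep was lower in mPRAT, at 234 CPM against 268 CPM.

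iBAT was set beside iWAT at 6 months and in cold. At 6 months 5 of 7 members were past 2-fold, against 23.7% of genes, with Lep 9.20-fold, Retn 22.5-fold, Cfd 7.61-fold and Sncg 13.8-fold lower in iBAT and Nampt 2.49-fold higher. In cold 6 of 8 were, all lower in iBAT, against 30.9% of genes. Lep was then 67.0-fold lower in iBAT (55.4 to 81.6), Retn 30.5-fold, Cfd 27.3-fold, Sncg 21.3-fold, Rbp4 6.35-fold and Adipoq 3.99-fold. With 10 CPM added Sncg did not pass there (log2 ratio -0.72). Within cluster 0 alone Lep (log2 ratio 1.91), Retn and Sncg were not lower in iBAT at 6 months, and Retn, Rbp4 and Cfd were not in cold. In cluster 1 at 6 months Lep was lower in iBAT, at 178 CPM against 268 CPM in iWAT. Retn was 112 and 114 CPM there, and Sncg 24.2 and 15.2 CPM. Between the white depots, in lPRAT, Rbp4 was 2.35-fold and Sncg 2.16-fold higher than in iWAT at 6 months, 2 of 7 members against 9.91% of genes. Neither passed with 10 CPM added (0.90 for Rbp4 and 0.76 for Sncg), and Sncg did not with TMM scaling.

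Because depth differed between libraries, each adipocyte-like nucleus was thinned to 1000 UMIs before counting how many had a UMI of a gene. Between 9 and 2934 shallower nuclei per library were left out. In lPRAT at 2 months the median depth was 897 UMIs. Most nuclei of that library were thus left out, and its shares describe the deeper ones. Lep was detected in 15.7% of thinned nuclei in iWAT at room temperature, 8.05% in iWAT in cold, 12.4% and 16.9% in lPRAT, and 7.34% in mPRAT at 6 months against 1.78% in cold. In iBAT it was detected in 4.68%, 2.17% and 2.30% of nuclei at 1, 2 and 6 months and in 10 of 9620 nuclei, 0.104%, in cold. Without thinning the Lep share was 58.1% in lPRAT at 6 months and 0.795% in iBAT in cold. Adipoq was detected in 4.16% of thinned nuclei in iBAT in cold to 25.1% in lPRAT at 6 months, and 13.3% to 69.7% without thinning. Nampt was detected in 14.7% (iWAT at room temperature) to 47.5% (iBAT at 1 month) of thinned nuclei.

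Retn was detected in 0.371% of thinned nuclei in iBAT at 6 months and 0.385% in cold, but in 2.46% at 2 months. It was found in 3.99%, 7.44% and 10.9% of mPRAT nuclei at 1, 2 and 6 months and in 9.91% in cold, and in 7.82% and 16.3% of lPRAT nuclei. Cfd was found in 21.6% of mPRAT nuclei at 6 months and 11.3% in cold, and in iBAT in 2.24% at 6 months and 0.291% in cold. Rbp4 ranged from 0.457% in iBAT in cold to 4.63% in lPRAT at 2 months. Sncg reached 3.00% in lPRAT at 6 months and 1.45% in iWAT at room temperature. Apln did not exceed 0.222% in any library.

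Macrophage-like nuclei, which should lack adipocyte hormones, were used to read the background from free RNA. For Nampt and Cfd this reading may not hold. Their median levels there were 33.5% and 38.9% of the adipocyte-like level, against 11.5% for the adipocyte gene Plin1. The median depth of macrophage-like nuclei was 710 to 2054 UMIs. Lep had no UMI in them in 10 of 12 libraries after thinning. Some of these groups were small and shallow, so a share of 0 has a wide upper limit there. In iBAT at 2 months there were 31 such nuclei before thinning, at a median of 871 UMIs. Without thinning, summed Lep reached 17.0% of the adipocyte-like level in macrophage-like nuclei of mPRAT at 2 months. After thinning, Lep was found in 5 of 1018 nuclei (0.491%) in lPRAT at 6 months and in 13 of 388 (3.35%) in iWAT at room temperature. These shares were well below 16.9% and 15.7% of adipocyte-like nuclei. In iBAT in cold none of 251 macrophage-like nuclei had a Lep UMI. These were too few nuclei to tell a share of 0 from the low Lep share of adipocyte-like nuclei there. Cfd in that library was found in 2 of 251 macrophage-like nuclei (0.797%) against 0.291% of adipocyte-like nuclei, and Retn in 1 of 251 (0.398%) against 0.385%. Over all cold iBAT adipocyte-like nuclei the Cfd and Retn shares were thus at or below the macrophage-like ones, which rest on 2 and 1 nuclei, whereas the 155 nuclei of cluster 0 in that library held 240 CPM of Retn and 150 CPM of Cfd. Adipoq was in 3 of the same 251 nuclei (1.20%) against 4.16% of adipocyte-like nuclei. Ucp1, a gene of brown adipocytes, was in 53 of the 251, or 21.1%.

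**Figure D3:**
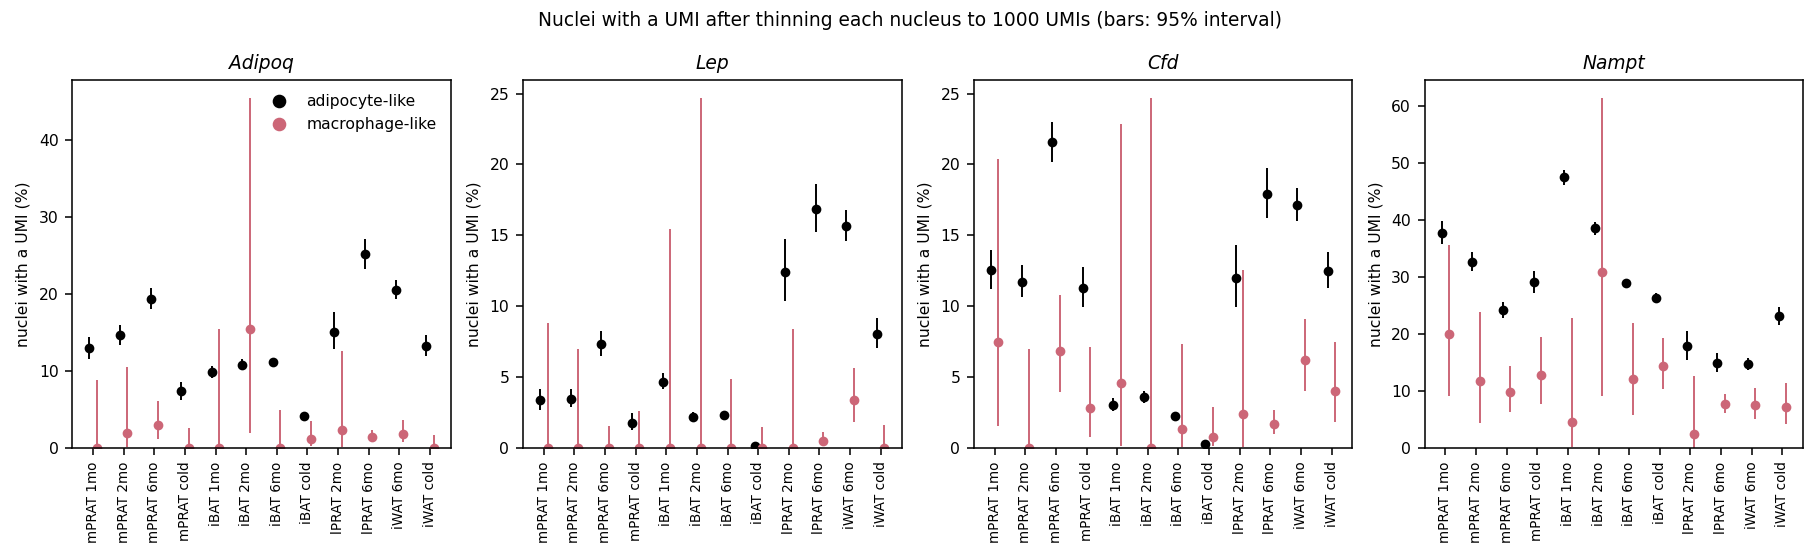
Percent of nuclei with at least 1 UMI of Adipoq, Lep, Cfd and Nampt after thinning to 1000 UMIs, in adipocyte-like (black) and macrophage-like (pink) nuclei of each library, with exact 95% binomial intervals. Lep is at 0% in macrophage-like nuclei of 10 libraries, some of them with few such nuclei. Nampt is found in 2.38% to 30.8% of macrophage-like nuclei and Cfd in 0% to 7.50%.

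The level of each gene in other classes, as a percent of the adipocyte-like level in the same library, separated the members. Plin1, a coat protein of lipid droplets, served as a gene that other classes should lack. Its median was 8.21% in ASPC-like nuclei, 11.5% in macrophage-like and 12.6% in endothelial-like nuclei. Lep lay below this, with medians of 5.03%, 0.675% and 5.28%, and Adipoq was near it, at 9.05%, 10.0% and 18.4%. Retn had medians of 7.39% in ASPC-like and 7.58% in macrophage-like nuclei. Nampt stood well above, at 43.7% in ASPC-like (28.8% to 64.7%), 33.5% in macrophage-like, 42.3% in mural-like and 29.6% in endothelial-like nuclei. Cfd was also above Plin1 in these classes, with medians of 15.9% in ASPC-like, 38.9% in macrophage-like and 25.0% in endothelial-like nuclei, and stood at 45.6% in T or NK cell-like nuclei against 19.0% for Plin1, and it reached 179% in macrophage-like nuclei of iBAT at 2 months, a class of 31 nuclei.

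Rbp4 had a median of 26.5% of the adipocyte-like level in ASPC-like nuclei and 6.61% in macrophage-like nuclei, from few counts. Sncg in endothelial-like nuclei equalled or exceeded the adipocyte-like level in 8 of 12 libraries, with a median of 262%. It held 31.8 CPM (13 counts) in lPRAT at 6 months and 22.4 CPM (9 counts) in iWAT at room temperature, beside at most 4 counts in each of the other endothelial-like groups. Apln was present in mesothelial-like nuclei of lPRAT at 6 months, with 15 counts and 4.95 CPM (2.77 to 8.17) in 1173 nuclei, where adipocyte-like nuclei had none.

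Adipocyte-like nuclei were not uniform, and the makeup of each library moved with several of these differences. Libraries were clustered together without correction, so a cluster mostly of 1 library may stand for that library. Cluster 0 was led by Cyp2e1, Trhde, Ces1f, Car3 and the member Retn, and was spread over all depots. Cluster 1 drew 55.3% of its nuclei from iWAT at room temperature, cluster 5 drew 80.3% from iBAT at 6 months, and cluster 7, led by Gmpr, Acsl5, Elovl3 and Ucp1, drew 84.3% from iBAT in cold. Clusters 2 and 4, led among others by Tfrc and Ppara, were mainly nuclei of young iBAT. In mPRAT, cluster 7 made up 3.35% of adipocyte-like nuclei at room temperature and 59.4% in cold. In iBAT cluster 5 went from 88.2% to 0.176% and cluster 7 from 0.662% to 97.6%. In iWAT cluster 1 went from 84.1% to 11.5% and cluster 0 from 15.6% to 82.3%. In lPRAT cluster 0 went from 96.4% at 2 months to 10.6% at 6 months while cluster 1 went from 2.84% to 88.9%. In mPRAT between the same ages, cluster 1 went from 1.42% to 16.4%, cluster 4 from 29.3% to 4.59% and cluster 5 from 5.28% to 33.3%. The part of these shifts in the age ratios was not tested.

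Within these clusters Lep was high in clusters 0 and 1, lower in clusters 2, 4 and 5 and low in cluster 7. Clusters 2, 4 and 5 of iBAT held 38.2, 41.6 and 37.5 CPM at 1 month. At 2 months they held 3.83, 6.10 and 9.80 CPM. In iBAT at 6 months cluster 5 held 21.5 CPM, from 793 of the 1077 Lep counts of adipocyte-like nuclei. Cluster 1 held 268 CPM of Lep in iWAT at room temperature, 227 CPM in iWAT in cold, 275 and 220 CPM in lPRAT, 234 CPM in mPRAT at 6 months and 178 CPM in iBAT at 6 months. The 54 nuclei of cluster 1 in mPRAT at 2 months held 114 CPM. Cluster 7 held 0.465 CPM in iBAT in cold and 0.960 CPM in mPRAT in cold. Cluster 0 of iBAT held 331, 188 and 241 CPM at 1, 2 and 6 months, above cluster 0 of mPRAT at 54.3, 60.8 and 112 CPM, and these iBAT nuclei were 3.27%, 8.34% and 1.30% of the adipocyte-like total.

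Lep was also lower in cold within cluster 0 of mPRAT, at 49.8 CPM against 112 CPM, and within cluster 0 of iBAT, at 60.3 against 241 CPM. In iWAT the direction within cluster 0 turned, from 63.3 CPM at room temperature to 89.8 CPM in cold, a log2 ratio of 0.50 for Lep against -1.18 over all adipocyte-like nuclei. The lower Lep level of cold iWAT thus moved with the exchange of cluster 1 for cluster 0, whose part in the result was not tested. In lPRAT, Lep stood at 121 CPM in cluster 0 at 2 months and 133 CPM at 6 months.

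Retn was a gene of clusters 0 and 1 in every depot, iBAT included. Cluster 0 of iBAT held 164, 223 and 128 CPM of Retn at 1, 2 and 6 months and 240 CPM in cold, levels like those of the other depots. Clusters 2, 4 and 5 held 1.46 to 36.3 CPM across libraries with at least 50 nuclei and at least 1 count, and cluster 7 of iBAT in cold held 0.524 CPM. Retn in cluster 0 of mPRAT was 206 CPM at room temperature and 344 CPM in cold, while cluster 7 of cold mPRAT held 5.92 CPM. Adipoq was less bound to clusters. Clusters 2, 4 and 5 held 100 to 159 CPM in the room temperature libraries, against 127 to 354 CPM in cluster 0. Low values appeared in cold, with 26.1 CPM in cluster 7 of mPRAT, 37.6 CPM in cluster 7 of iBAT and 5.67 CPM, from 3 counts, in cluster 7 of iWAT. Within cluster 0 Adipoq was also lower in cold, at 179 against 287 CPM in mPRAT, 154 against 204 CPM in iBAT and 161 against 354 CPM in iWAT. These falls were under 2-fold in mPRAT and iBAT, where those over all adipocyte-like nuclei were past it. In iWAT the order was the reverse, past 2-fold within cluster 0 alone.

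**Figure D4:**
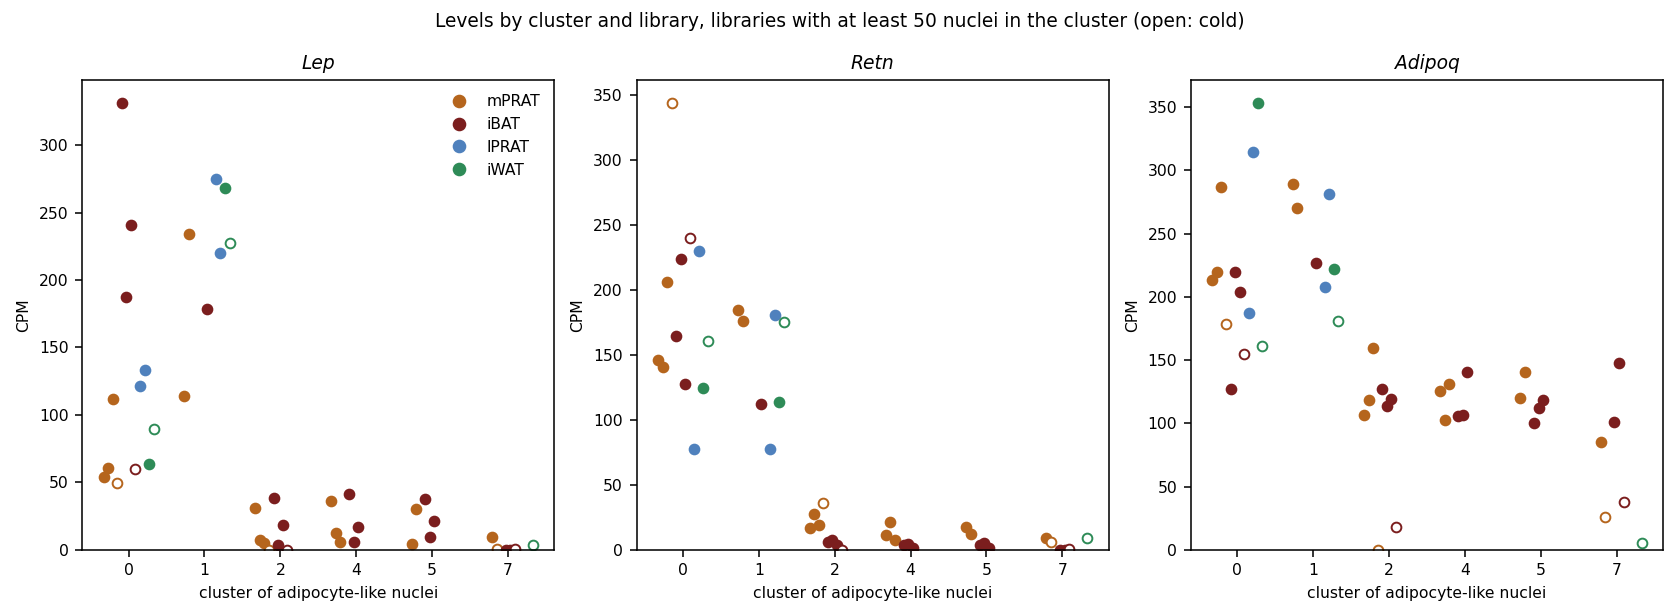
Levels (CPM) of Lep, Retn and Adipoq in each adipocyte-like cluster (0, 1, 2, 4, 5 and 7), 1 point per library with at least 50 nuclei in the cluster. Retn is at least 77.9 CPM in clusters 0 and 1 and at most 36.3 CPM in the others, and cold libraries have the low Adipoq points of cluster 7.

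Cfd in cluster 0 of mPRAT stood at 359 CPM at room temperature and 360 CPM in cold, while cluster 7 of cold mPRAT held 17.1 CPM. In iBAT it was 217 CPM in cluster 0 at room temperature and 150 CPM in cold, a fall of less than 2-fold, and 1.53 CPM in cluster 7 in cold. In iWAT it was 254 CPM in cluster 0 at room temperature and 127 CPM in cold. Sncg in cluster 0 of mPRAT went from 15.1 CPM at room temperature to 0.957 CPM in cold, so its lower level was also seen within that cluster. Nampt was the most even member across clusters. In iWAT its cluster 0 level was 169 CPM at room temperature and 280 CPM in cold, in mPRAT 294 and 387 CPM, and cluster 7 of cold iBAT held 311 CPM.

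Detection in single nuclei, after the same thinning, was compared between nuclei with and without a Ucp1 UMI in 9 libraries. Over all genes found in at least 20 nuclei of a library, the exact 95% intervals of both shares were apart in 8.41% of pairs of gene and library, and in 1.50% to 16.9% of genes by library. This background was not matched on how often a gene was detected. For Retn the 2 exact 95% intervals were apart in 9 of 9 libraries, always with the lower share in nuclei with Ucp1. In mPRAT at 6 months Retn was found in 1.04% of nuclei with Ucp1 and 12.5% of those without, and in cold in 1.37% and 16.1%. In iWAT in cold it was in 0 of 84 nuclei with Ucp1, where 3 counts would be 3.57% and the exact upper limit is 4.3%, and in 14.8% of those without. For Lep the intervals were apart in 7 of 9 libraries, 1 of them with Lep in under 20 nuclei, and in mPRAT at 6 months the shares were 1.04% and 8.39%. Nampt intervals were apart in 0 of 9, with 26.5% and 23.8% in mPRAT at 6 months and 28.2% and 29.7% in cold.

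Adipoq and Cfd lay between these genes, with intervals apart in 5 of 9 libraries each. In mPRAT, Adipoq was in 11.6% of nuclei with Ucp1 and 20.7% without at 6 months, and in 2.63% and 10.8% in cold. At 1 month the order was the other way, 17.9% and 12.4%, with overlapping intervals. Cfd in cold mPRAT was in 1.94% of nuclei with Ucp1 and 18.1% of those without. Since Ucp1 UMIs were also found in macrophage-like nuclei, a Ucp1 UMI does not by itself mark a brown adipocyte.

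**Figure D5:**
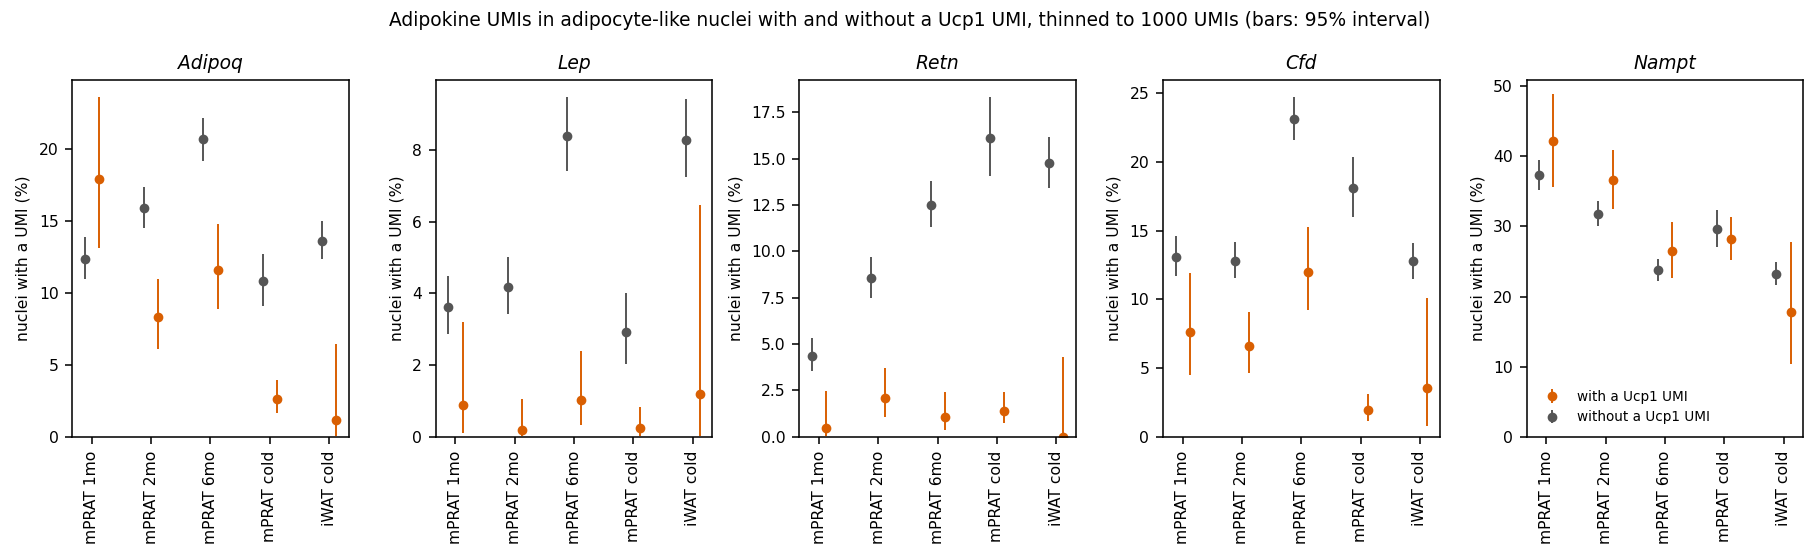
Percent of adipocyte-like nuclei with at least 1 UMI of Adipoq, Lep, Retn, Cfd or Nampt, among nuclei with (orange) and without (grey) a Ucp1 UMI, after thinning to 1000 UMIs, in mPRAT at 1, 2 and 6 months and in cold and in iWAT in cold, with exact 95% binomial intervals. Retn is at 0.448% to 2.08% with Ucp1 in mPRAT and at 4.36% to 16.1% without, whereas the Nampt intervals overlap in every library.

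The same comparison was made for Cyp2e1, a leading gene of cluster 0, where intervals were apart in 8.76% of pairs of gene and library over 12 libraries. They were apart in 9 of 12 libraries for Cfd, 8 for Retn and 7 for Adipoq, each time with the higher share in nuclei with Cyp2e1. Retn was in 24.4% of cold mPRAT nuclei with a Cyp2e1 UMI and 5.17% of those without, and in iBAT at 6 months in 12.9% and 0.277%. For Lep the intervals were apart in 9 of 12 libraries, 1 of them with Lep in under 20 nuclei. In all but 1 of the 9 the share was higher in nuclei with Cyp2e1. Lep in iBAT at 6 months was in 16.8% of nuclei with Cyp2e1 and 2.19% without. In iWAT at room temperature Lep had the opposite order, 10.6% with and 17.0% without. In lPRAT the intervals of Lep, Adipoq and Retn overlapped at both ages, while those of Cfd were apart at 6 months (20.2% with and 13.4% without). Nampt was lower with Cyp2e1 in mPRAT at 2 months (28.5% against 35.6%), iBAT at 1 month (38.1% against 47.9%) and iBAT at 2 months (29.6% against 39.4%), the 3 libraries of 12 where its intervals were apart.

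Other secreted factors of adipocytes were read from a list of 24 genes, of which 11 to 16 had enough counts in a comparison. In cold mPRAT 4 of 15 were past 2-fold higher, where 7.97% of all genes were, and 5 lower, where 7.21% were. The list's median log2 ratio was -0.36. Bmp8b, a secreted signal of active brown fat, was 15.4-fold higher (6.91 to 40.4), Fgf21 8.19-fold, Slit2 4.10-fold and Metrnl 3.20-fold. C1qtnf1 was 10.3-fold lower, Sfrp5 8.51-fold and Rarres2 (chemerin) 3.94-fold lower. The values of C1qtnf1 and Sfrp5 rested on 0.188 CPM each in cold mPRAT, where 3 counts would be 0.282 CPM. In cold iBAT 4 of 15 were higher, where 5.62% of genes were, and 2 lower, where 8.78% were, with a median of -0.34. Bmp8b was 41.8-fold higher there (29.7 to 60.9) and Rarres2 5.31-fold lower. In cold iWAT 3 of 14 were higher, where 2.48% of genes were, and 3 lower, where 5.96% were, with a median of -0.46. Slit2 was 8.66-fold and Nrg4 2.56-fold higher, and Sfrp5 was 10.2-fold and C1qtnf1 6.02-fold lower. Lpl, the lipase that frees fatty acids from plasma lipoproteins, was 3.65-fold higher in iWAT and 2.88-fold higher in iBAT.

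Of 9 receptors and binding partners found in the files, 7 or 8 had enough counts in the cold comparisons. None of 7 was past 2-fold in mPRAT, where 15.2% of genes were, and none of 7 in iWAT, where 8.44% were. In iBAT 1 of 8 was, Tlr4, lower, against 14.4% of genes. Adipor2, singled out after its values were seen, stayed between 1550 and 3267 CPM in all 12 libraries. Cdh13, which binds adiponectin, was past 2-fold lower in mPRAT than in iBAT in each of the 4 comparisons, and Tlr4 higher. Cdh13 was also past 2-fold lower at 6 than at 1 month in mPRAT, at 2 than at 1 month in iBAT and at 6 than at 2 months in lPRAT. In iBAT it held 45.7, 20.7 and 38.5 CPM at 1, 2 and 6 months and so was not past 2-fold between 1 and 6 months. Cdh13 was also a leading gene of the endothelial-like cluster. Endothelial markers within adipocyte-like nuclei fell too in the comparisons where Cdh13 was lower with age. Their sum went from 43.3 to 20.3 CPM in mPRAT, 55.9 to 29.4 CPM in iBAT and 58.5 to 10.8 CPM in lPRAT. It was 18.8 CPM in iBAT at 6 months. The part of endothelial RNA in the Cdh13 levels was not tested. Among genes for folding and assembly of adiponectin, none of 9 was past 2-fold in cold in mPRAT or iWAT, against 15.2% and 8.44% of genes. In cold iBAT 3 of 9 were, all higher, where 5.62% of genes were higher, namely the collagen prolyl hydroxylases P4ha2 (5.64-fold) and P4ha1 (4.17-fold) and Gstk1 (2.45-fold). Among 13 transcription regulators, 2 were past 2-fold in cold mPRAT, 1 in cold iBAT and 1 in cold iWAT, all higher, against 7.97%, 5.62% and 2.48% of genes that were higher. Cebpb, a C/EBP factor, was 2.11-fold higher in cold mPRAT and 2.14-fold higher in cold iBAT. Ppargc1a was also past 2-fold higher in cold mPRAT, and Esrra in cold iWAT.

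Genes with the pattern nearest to each member were taken over the 12 libraries from 8447 candidates with at least 10 CPM on average, by the root mean square difference of centred log2 levels. Mcam was nearest to Lep (0.487), followed by Sec16b and Hsf3, where the standard deviation of Lep itself was 1.71. Fgfrl1 was nearest to Adipoq (0.242), Adgrl2 to Retn (0.430), Npr2 to Rbp4 (0.329), Car5b to Cfd (0.458), Pitpnm2 to Nampt (0.157) and Apba1 to Sncg (0.405). Among the members themselves Adipoq and Rbp4 were closest, at 0.595, followed by Retn and Cfd at 0.644. Nampt was farthest from Sncg (2.14) and from Lep (2.12).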

How the data were processed

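Nuclei were sorted and sequenced with the 10x 3′ chemistry, per the labels' protocols. As deposited, the values are UMI counts for every gene in every barcode, made with Cell Ranger 7.0.0 per the file headers and the submitters' processing notes, which name mm10. Whether intronic reads were counted is not given in the sources used here. Intronic or unspliced reads would add to a gene's count in nuclei, so counts of different genes are not compared as levels.

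Barcodes with at least 500 UMIs and 300 genes numbered 118550. Of these, 96629 were kept after a limit of at most 10% mitochondrial counts and the removal of doublets. Doublets were scored per library with scrublet in scanpy 1.11.5, and the highest scores were removed at 0.8% per 1000 nuclei, since scrublet alone marked almost none in several libraries. Clustering used 2000 variable genes, 30 principal components, 15 neighbours and Leiden resolution 1, without the adipokines, Ucp1, Cyp2e1, mitochondrial, ribosomal and sex-linked genes, and gave 25 clusters. A mixed macrophage and dendritic cluster was split at resolution 0.5, a rule chosen after the clusters were seen. Clusters were named from fixed marker lists.

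Counts were summed per library and class and scaled to CPM, with exact Poisson intervals for levels, exact conditional binomial intervals for ratios and Clopper-Pearson intervals for shares (scipy 1.17.1, numpy 2.4.6, Python 3.11.15). With 1 library per group there is no test and no p-value. The fold rule was applied to all genes in the main setting, and the share past 2-fold is given beside each count of members there. That share was not matched on level and was not computed under the alternatives. A random seed of 7 was used. edgeR 4.0.16 in R 4.3.3 gave TMM factors for 1 alternative only. The ratio and interval code was tested on simulated counts. Positions of 32158 of 32285 features came from GENCODE M21, and promoter sequences from RefSeq on GRCm38.p6, which had entries for all 8 members.

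The 8 members were examined in every comparison, though not each is named for each comparison in the text. From each list some genes past 2-fold were named, at most 4 in each direction of a comparison, and Adipor2 besides. Other genes past 2-fold, mostly in the age and depot comparisons, are not named. For each member up to 3 genes of nearest pattern were named. The values of 1 listed gene are not reported here. The members and lists were chosen with earlier results of these data known. Alternatives were TMM scaling, the mean of nuclei, other filters, another resolution, subtraction of the macrophage-like level and another added CPM.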

Additional observations from a re-analysis of the deposited data

Results flagged for a closer look

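Pairs of depots in which an adipokine differed in opposite directions under the same contrast are given here. At least 1 ratio was past 2-fold and both counting intervals lay to 1 side of no change. The contrasts searched were cold over room temperature, 6 over 2 months and 2 over 1 months. Those of 6 over 1 months were not searched. There Lep (1.37 in mPRAT and -1.19 in iBAT) and Retn (1.09 and -1.45) also had opposite log2 ratios, all past 2-fold. None of these differences was tested, because each rests on 1 library per group. The log2 ratio of Rbp4 in cold over room temperature was -1.001 in iBAT and 0.68 in iWAT, a difference of -1.68. For Lep at 6 over 2 months it was 1.44 in mPRAT and -0.38 in iBAT, a difference of 1.82. Retn at 6 over 2 months had log2 ratios of 0.50 (mPRAT), -2.69 (iBAT) and 1.22 (lPRAT). The difference for Retn was 3.19 between mPRAT and iBAT and -3.92 between iBAT and lPRAT. Opposite signs with neither ratio past 2-fold were left out, among them Cfd at 6 over 2 months (0.79 in mPRAT and -0.89 in iBAT), Rbp4 in cold (-0.98 in mPRAT and 0.68 in iWAT) and Lep at 6 over 2 months (-0.38 in iBAT and 0.70 in lPRAT). Beside the Retn value of iBAT, cluster 0, where Retn was high, fell from 8.34% to 1.30% of adipocyte-like nuclei between 2 and 6 months, and its part in that value was not tested. In lPRAT cluster 0 fell from 96.4% to 10.6% while Retn was higher at 6 months, also within cluster 0 (230 against 77.9 CPM).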

How the results depend on the processing

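Each group has 1 library, so nothing pairs libraries within a comparison, and no library could be left out of a group. A fit over depots, with each depot's cold and room temperature libraries as a pair, was not run. Of 55 calls of a member past 2-fold, 38 held under every alternative other than the use of cluster 0 alone, and none of those others reversed a called member. All 20 counts stayed within 1.5 times with resolution 2, no minimum count or no mitochondrial limit. The share of all genes past 2-fold was not computed under the alternatives, so the counts below stand without it. In iBAT the count past 2-fold between 1 and 2 months was 2 with the mean of nuclei, 3 with the macrophage-like level subtracted and 0 with 10 CPM added. Between 2 and 6 months the count was 2 when nuclei under 1000 genes were dropped and 3 with subtraction, and between 1 and 6 months 1, 4 and 0 with the mean, subtraction and 10 CPM. It was 4 in lPRAT with subtraction, and 2 in cold iWAT with TMM or subtraction, where Nampt was added. Between mPRAT and lPRAT it was 2 at 2 months without nuclei under 1000 genes, and at 6 months 2 with the mean, 2 with subtraction and 0 with 10 CPM. Between mPRAT and iWAT it was 1 under 5 alternatives, each losing Nampt, namely TMM, 10 CPM added, doublets kept, the own threshold of scrublet and nuclei of 1000 genes or more. Between lPRAT and iWAT it was 1 with TMM and 0 with 10 CPM, and between mPRAT and iBAT in cold 3 with 10 CPM. TMM moved the median log2 ratio of all genes from 0.04 to -0.27 in that last comparison and from -0.09 to 0.11 for cold iBAT. Rbp4 in cold iBAT ranged from -1.18 to -0.18. The cause of these changes was not tested.

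An alternative chosen after seeing the data used nuclei of cluster 0 alone, again without the share of all genes. The counts were then 2 for cold iBAT, 1 between mPRAT and iBAT at 2 months, 2 at 6 months and 1 in cold, 2 and 0 between mPRAT and lPRAT at 2 and 6 months, 0 between mPRAT and iWAT, and 2 and 1 between iBAT and iWAT at room temperature and in cold. Log2 ratios reversed for Rbp4 in cold iBAT (1.56) and Lep in cold iWAT (0.50). Between mPRAT and iBAT they reversed for Retn at 1 and 2 months (-0.17 and -0.66), Lep at 6 months and in cold (-1.10 and -0.27), Sncg at 6 months (-0.43) and Rbp4 in cold (-0.46). Lep reversed between mPRAT and iWAT (0.81). Between iBAT and iWAT Lep (1.91), Retn (0.038) and Sncg (1.18) reversed at 6 months, and Retn (0.57), Rbp4 (0.73) and Cfd (0.23) in cold. Some other clusters kept the direction, as given above. Apln had at most 30 counts in a library, which bounds the precision of its ratios.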

Other observations

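In lPRAT at 2 months, 102 nuclei of clusters without a name held Cfd, Adipoq and Retn at levels above the adipocyte-like nuclei of the same library. Cfd was 747 CPM there (75 counts, 588 to 937), against 156 CPM in adipocyte-like nuclei. Adipoq was 289 CPM (194 to 415) against 189 CPM, and Retn 249 CPM (161 to 368) against 77.6 CPM, while Lep (29.9 against 133 CPM, 3 counts) and Nampt (59.8 against 202 CPM, 6 counts) were below. Rbp4 was 39.9 CPM (10.9 to 102) against 47.2 CPM, and Plin1 was at 12.5% of its adipocyte-like level. This library was the shallowest of the 12.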
